A study of Mus musculus with 6 samples.

Results

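Transforming growth factor beta (TGF-β) and the activins are secreted dimers of the same superfamily that signal through paired serine/threonine kinase receptors and SMAD proteins. The set described here holds 10 genes of this system, chosen by symbol from the 20071 genes of the deposited count table: the ligand genes Tgfb1, Tgfb2 and Tgfb3, the receptor gene Tgfbr2 and the co-receptor gene Tgfbr3, Inhba and Fst of the activin branch, and Ltbp1, Ltbp2 and Ltbp3 of the latent TGF-β binding protein (LTBP) family. All 10 passed the filter on low counts, with between 685 and 17197 reads per gene and library. TGF-β leaves the cell in a latent complex, in which its own propeptide wraps the growth factor and is tied by a latent TGF-β binding protein to fibrillin and fibronectin fibres, and it acts only once released. Activin A, a dimer of the protein made from Inhba, is not held in this way and is instead bound and blocked by follistatin, the product of Fst. In bone, where the matrix stores much TGF-β, the pathway is known for recruiting progenitors and for slowing the last steps of osteoblast maturation.

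The cells were bone marrow mesenchymal stem cells (MSCs), stromal cells able to form osteoblasts, taken from the femurs of mice aged 6 weeks. Both groups carried Pcif1 alleles with loxP sites around exons 5 to 7. Those of the Prrx1-Cre;Pcif1fl/fl group, labelled CKO, also carried a Cre recombinase that is active in limb mesenchyme, whereas Pcif1fl/fl littermates, labelled WT, lacked it. PCIF1 is the enzyme that methylates a cap-adjacent adenosine of mRNA (m6Am). All cultures had spent 7 days in osteogenic medium with dexamethasone (100 nM), β-glycerophosphate (5 mM) and ascorbic acid (50 µg/mL), and poly(A) RNA of 3 libraries per genotype was sequenced. The series description speaks of duplicates, and nothing states that the libraries came from separate animals, so that p-values measure the spread between libraries, which may be technical.

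The libraries held 20258209 to 28227696 counts. Levels are given as CPM, the count of a gene per 1000000 counts of its library after TMM scaling. A gene was called higher or lower in CKO cultures where its p from the quasi-likelihood test of edgeR, adjusted by Benjamini and Hochberg's method over 13733 genes, was under 0.05. Fold changes are given on the log2 scale as CKO minus WT with their standard error (SE). Pcif1 itself ranged from 39.3 to 42.8 CPM in WT and from 37.8 to 39.7 CPM in CKO libraries, and counts per gene do not show whether the floxed exons were missing. Xist, which marks cells with an inactive X chromosome, lay between 232 and 443 CPM in WT but between 0.72 and 1.79 CPM in CKO libraries, and the Y-linked Ddx3y was at 48.4 to 62.2 CPM in the former and 99.1 to 104 CPM in the latter. The sex make-up of the cultures and their genotype therefore cannot be told apart in any result given here. WT replicate 3 stood apart, with 3.63% of its counts on mitochondrial genes against 1.40% to 1.57% in the other 5 libraries. Its mean chi-square per gene was 90.7 and 107 against the other WT libraries, which differed from each other by 10.3. WT replicates 1 and 2 differed from the CKO libraries by 36.2 to 46.5, and the CKO libraries from each other by 2.88 to 10.7. WT replicate 3 was thus further from the rest of its group than those were from the CKO libraries.

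Macrophage markers were abundant in every library. The 14 macrophage markers summed to 32110 to 35530 CPM in WT and 33080 to 36240 CPM in CKO libraries, and 0 of them were lower and 1 (Cx3cr1) higher by the edgeR test (1 and 3 at an unadjusted p under 0.05). Over all genes tested, 4.51% were lower and 2.88% higher, and 11.8% and 9.56% at an unadjusted p under 0.05. The 15 mesenchymal and osteoblast markers summed to 11150 to 13800 CPM in WT and 13520 to 14390 CPM in CKO libraries. Of the 14 tested, 7 were lower (Pdgfra, Eng, Lepr, Cxcl12, Sp7, Alpl and Ibsp) and 3 higher (Col1a1, Col1a2 and Thy1), against 4.51% and 2.88% of all genes. Col1a1 and Col1a2 made up most of the sum, and their means rose from 4039 and 4105 CPM to 6173 and 6377 CPM. Cxcl12, the next most abundant of them, fell from a mean of 3051 CPM to 562 CPM. Bglap, the osteocalcin gene, was under 1 CPM in all 6 libraries. The 7 osteoclast markers summed to 159 to 170 CPM in WT and 204 to 242 CPM in CKO libraries, of which 0 of the 4 tested were called lower or higher (0 and 2 at an unadjusted p under 0.05). Of 7 adipocyte markers tested, 4 were lower (Adipoq, Plin1, Pparg and Cidec, against 4.51% of all genes) and 0 higher (4 and 1 at an unadjusted p under 0.05). Fabp4 went the other way, with a log2 fold change of 0.46 (adjusted p = 0.0545 by edgeR). The adipocyte sums overlapped, at 762 to 802 CPM in WT and 662 to 863 CPM in CKO libraries. Chondrocyte markers summed to 41.5 to 53.99 CPM in WT and 33.6 to 40.2 CPM in CKO libraries, with 2 of 4 tested lower (Comp and Col10a1). Col2a1 went the other way, with a log2 fold change of 0.69 (unadjusted p = 0.0139 by edgeR, not called), and that of Sox9 was 0.017. Neutrophil markers summed to 1.00 to 1.14 and 1.30 to 1.98 CPM, with 1 of 2 tested higher (S100a8, at means of 0.47 and 1.28 CPM). Camp, the other one tested, had a log2 fold change of -0.59. All neutrophil markers but S100a8 were under 1 CPM in all 6 libraries. The sums of smooth muscle markers (534.8 to 699.7 and 577 to 606 CPM) and of lymphocyte markers (2.75 to 3.53 and 2.12 to 3.73 CPM) overlapped between genotypes. Acta2 made up most of the smooth muscle sum, at means of 530 and 517 CPM. Of the 7 smooth muscle markers 0 were called, but 3 (Cnn1, Lmod1 and Des) were lower and 0 higher at an unadjusted p under 0.05. Macrophages also make TGF-β and activin, so the cell type that a count came from is unknown, the part of these cell types in the results was not tested, and in bulk RNA fewer cells of a type cannot be told from less RNA per cell.

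Since PCIF1 acts on transcripts whose cap is followed by adenosine, the annotated start sites of the genes are shown as background to their identity. RefSeq starts on GRCm38.p6 were found for 7 of the 10 genes, with 8 starts in all; Tgfb3, Tgfbr3 and Fst had no entry in the table used. The following lines give 12 bases on each side of the start of Inhba, of Ltbp1, whose 2 starts lie 173 kb apart, and of Ltbp3, with the annotated first transcribed base in capitals. Inhba and Ltbp1 are shown because both were higher in CKO MSCs, and Ltbp3 as the other gene with an A at its start.
Inhba, chr13:16011839-16011863, plus strand: caagctgctcccGgggttcgctagt
Ltbp1, upstream start, chr17:75005517-75005541, plus strand: gaaacttttaaaAgactttgcagcc
Ltbp1, downstream start, chr17:75178769-75178793, plus strand: ggagttctgtttGttaagcttccta
Ltbp3, chr19:5740888-5740912, plus strand: ttcttttgagtcAgacactggatcc
The annotated first base was A at the upstream start of Ltbp1 and at the start of Ltbp3, G at the starts of Inhba, Tgfb2 and Tgfbr2 and at the downstream start of Ltbp1, and C at those of Tgfb1 and Ltbp2. Among 17726 annotated starts of genes in the count table, 32.3% had A as the first base. The counts do not show which start was used or which base carried a methyl group.

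Of the 10 genes, 2 were lower (Tgfbr3 and Fst) and 2 higher (Inhba and Ltbp1) in CKO MSCs, against 4.51% lower and 2.88% higher among all genes tested. Ordered by p among all genes tested, the 4 called genes had the ranks 191 (Fst), 200 (Inhba), 215 (Tgfbr3) and 399 (Ltbp1) of 13733. The median log2 fold change of the 10 genes was -0.23, and that of all genes tested was 0.0017. When a log2 fold change of -1 or less, or of 1 or more, was asked for as well, as in the methods of the study, 0 of the 10 were lower and 0 higher with edgeR, also at an unadjusted p under 0.05, against 2.50% and 1.03% of all genes. Tgfbr3 fell just short of that bound, with a log2 fold change of -0.99, and passed it in 3 of the alternative fits. The genotypes did not overlap in 7 genes, with the CKO libraries lower in 5 of them and higher in 2, where 15.7% and 15.0% of all genes tested were apart in the same ways. Without WT replicate 3, when 10.4% of genes were lower and 11.1% higher, Ltbp2 was called lower as well.

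**Figure D1:**
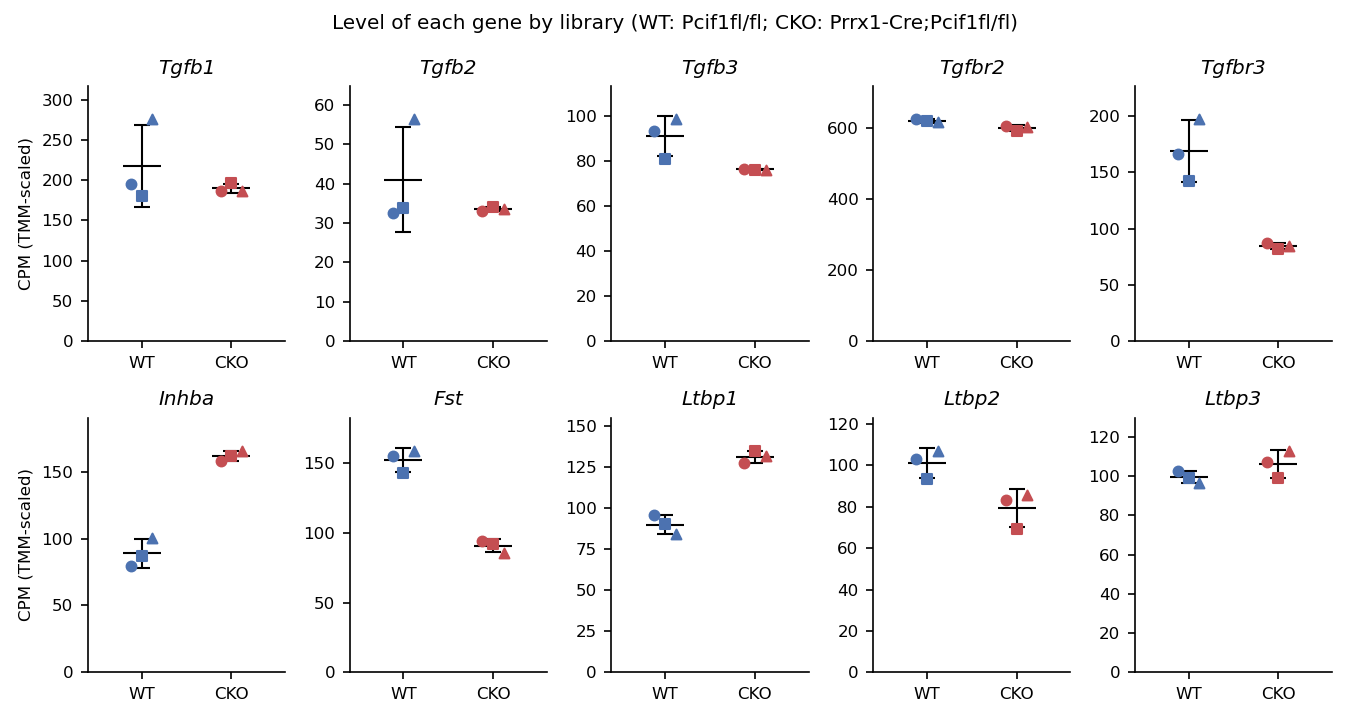
Level of each of the 10 genes in the 6 libraries, in TMM-scaled CPM on axes that start at 0. Circles, squares and triangles are replicates 1, 2 and 3 of each genotype (the same number does not mark a pair), and the black bars give the mean and SD of 3 libraries. Inhba and Ltbp1 stand higher and Tgfbr3 and Fst lower in the CKO libraries with no overlap, and the triangle of WT replicate 3 lies above the other libraries for Tgfb1, at 276 CPM, and Tgfb2, at 56.3 CPM.

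The activin genes Inhba and Fst moved in opposite directions. Inhba (ENSMUSG00000041324, chromosome 13, 16011851 to 16031621 in GRCm38, the build of all gene positions given here), which encodes the subunit of activin A, had levels of 79.5, 86.7 and 101 CPM in the WT libraries, in the order of replicates 1 to 3, and of 158, 162 and 166 CPM in the CKO libraries. The lowest CKO library was thus well above the highest WT library. The gene rose 1.82-fold, a log2 fold change of 0.86 (SE 0.10, 95% interval 0.62 to 1.10, adjusted p = 0.0019).

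Fst (ENSMUSG00000021765, chromosome 13, 114452290 to 114458951), which encodes the activin-binding follistatin, was at 155, 143 and 159 CPM in WT and at 94.4, 92.2 and 85.6 CPM in CKO libraries. All 3 CKO values lay below 100 CPM and close together, and the groups did not overlap. Fst had a log2 fold change of -0.75 (SE 0.089, 95% interval -0.95 to -0.54, adjusted p = 0.00174), so that the WT level was 1.68-fold higher. The antisense gene Gm47040 covers 2.51% of the exonic bases of Fst. The adjusted p of Inhba was at most 0.0175 and that of Fst at most 0.0198 over 13 alternative fits.

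Set against each other within a library and per kb of exon, Inhba stood at 0.369, 0.436 and 0.455 times the Fst level in WT and at 1.20, 1.26 and 1.39 times in CKO MSCs. Follistatin transcripts therefore outnumbered Inhba transcripts in the 3 libraries of the first genotype, and the order was inverted in the 3 of the other. The mean ratio went from 0.42 ± 0.045 (SD, n = 3) to 1.28 ± 0.097 (SD, n = 3), or 3.06-fold. A ratio within a library does not depend on how libraries are scaled, and it was formed after the directions of both genes were known, so it carries no test.

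**Figure D2:**
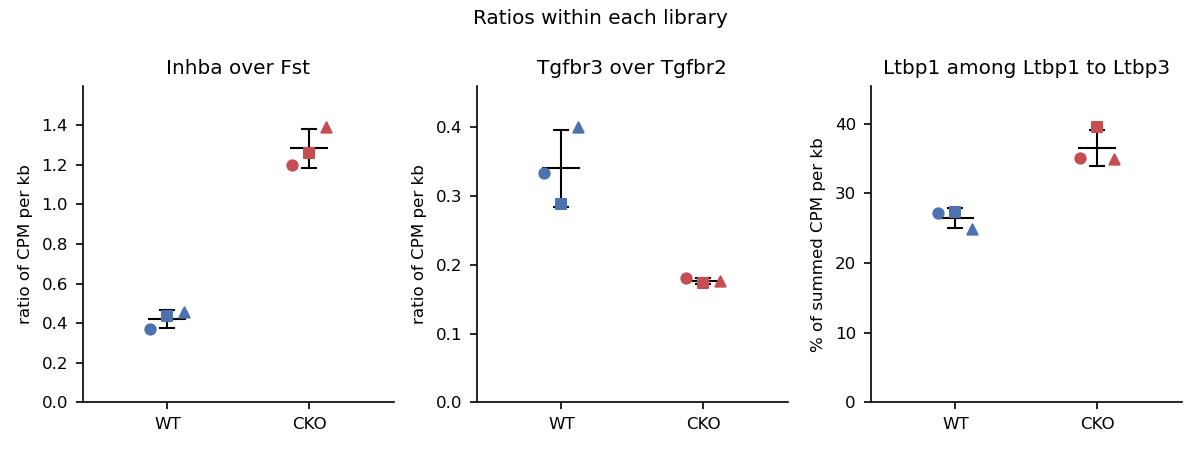
Ratios formed within each library, with axes from 0: Inhba over Fst and Tgfbr3 over Tgfbr2 in CPM per kb of exon, and the share of Ltbp1 in the summed CPM per kb of Ltbp1, Ltbp2 and Ltbp3, in percent. Points are libraries (circle, square and triangle for replicates 1 to 3) and bars the mean and SD. The WT and CKO libraries do not overlap in any panel, and the Inhba to Fst ratio moves from 0.42 to 1.28. Every panel includes a gene that was called higher or lower, so the gap between the genotypes carries no test.

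Other activin genes were not called. Inhbb, the gene of the other common activin subunit, ranged from 19.5 to 27.3 CPM and had a log2 fold change of 0.060 (SE 0.14, adjusted p = 0.845). Fstl3, which encodes a second activin-binding protein, had a log2 fold change of 0.32 (adjusted p = 0.253) at 7.89 to 11.8 CPM. Among the receptors of activin, Acvr1b, Acvr2a and Acvr2b had log2 fold changes of -0.15, -0.23 and -0.48 with adjusted p-values of 0.556, 0.366 and 0.29. Without WT replicate 3, Acvr1b was called lower, with a log2 fold change of -0.25 (adjusted p = 0.0458).

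Tgfbr3 had the most negative log2 fold change of the 10 genes. It encodes betaglycan, a membrane proteoglycan that presents TGF-β, the isoform from Tgfb2 above all, to the signalling receptors and also binds inhibin. Tgfbr3 (ENSMUSG00000029287, chromosome 5, 107106570 to 107289629) was at 166, 143 and 197 CPM in WT and at 87.6, 82.1 and 84.7 CPM in CKO libraries. The spread among WT libraries was wide, yet their lowest value was far above every CKO value. The level was 1.99-fold higher in WT MSCs (log2 fold change -0.99, SE 0.12, 95% interval -1.28 to -0.71, adjusted p = 0.00223). Without the highest library, WT replicate 3, the log2 fold change was -0.86 (adjusted p = 6.4e-07). Of the exonic bases of Tgfbr3, 4.54% overlap Gm43422 on the same strand.

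The signalling receptor gene Tgfbr2 was the most abundant of the set per kb of exon and differed little between libraries. Tgfbr2 (ENSMUSG00000032440, chromosome 9, 116084293 to 116175360) encodes the kinase receptor that binds TGF-β first and then recruits the partner encoded by Tgfbr1. Its level was 625, 619 and 617 CPM in WT and 607, 592 and 604 CPM in CKO libraries. Every value of the latter group was below the former, but by a log2 fold change of only -0.046 (SE 0.079, 95% interval -0.23 to 0.13, adjusted p = 0.777). Tgfbr1 ranged from 142 to 167 CPM in WT and from 175 to 191 CPM in CKO libraries, a log2 fold change of 0.27 (SE 0.094, adjusted p = 0.14). Without WT replicate 3 Tgfbr1 was called higher (adjusted p = 0.0216 there). Per kb of exon, Tgfbr3 stood at 0.288 to 0.400 of the Tgfbr2 level in WT and at 0.173 to 0.181 in CKO libraries.

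Of the 3 TGF-β ligand genes, 0 were called by edgeR, DESeq2 or limma-voom, and 1 (Tgfb3) had an unadjusted p under 0.05. With 4.51% lower and 2.88% higher among all genes (11.8% and 9.56% unadjusted), a count of 0 in 3 genes does not set the ligands apart. Tgfb1 (ENSMUSG00000002603, chromosome 7, 25687002 to 25705077) was at 195, 181 and 276 CPM in WT and at 187, 196 and 186 CPM in CKO libraries, so that the groups overlapped and 1 library stood out. The log2 fold change was -0.20 (SE 0.15, 95% interval -0.55 to 0.16, adjusted p = 0.522), and without WT replicate 3 it was 0.017. Tgfb2 (ENSMUSG00000039239, chromosome 1, 186622792 to 186705989) followed the same pattern and shares 2.14% of its exonic bases with the antisense gene Gm29491. It was at 32.6, 33.9 and 56.3 CPM in WT and at 32.9, 34.1 and 33.5 CPM in CKO libraries. Its log2 fold change of -0.29 (SE 0.20, 95% interval -0.75 to 0.17, adjusted p = 0.466) became 0.015 without that library. For both genes the direction therefore rested on WT replicate 3. Macrophage markers were mixed in that library: of the 14, 6 were above both other WT libraries, Cd68 (1227 CPM) and Fcer1g (475 CPM) among them, and 8 were below both, Adgre1 (393 CPM) and Tyrobp (200 CPM) among them. Their sum was 32110 CPM, of which Lyz2 made up 22770 CPM, against 35530 and 35050 CPM in WT replicates 1 and 2. The part of macrophage RNA in these ligand levels was not tested.

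Tgfb3 (ENSMUSG00000021253, chromosome 12, 86056745 to 86079041) differed in a more even way. It was at 93.2, 80.9 and 98.4 CPM in WT and at 76.5, 76.0 and 75.7 CPM in CKO libraries, with no overlap. The log2 fold change of -0.26 (SE 0.098, 95% interval -0.48 to -0.031) did not pass (edgeR adjusted p = 0.176). Of the exonic bases of Tgfb3, 12.4% overlap the antisense genes Gm37804 and Gm48008, more than in any other gene of the set, and the use of strand in the authors' counting is not stated. Per kb of exon, Tgfb1 supplied 53.9% to 58.5% of the summed signal of the 3 ligand genes in WT and 56.7% to 57.8% in CKO libraries. Tgfb3 supplied 31.1% to 38.3% and 33.4% to 34.6%, and Tgfb2 the remainder, so the make-up of the ligand pool overlapped between genotypes.

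**Figure D3:**
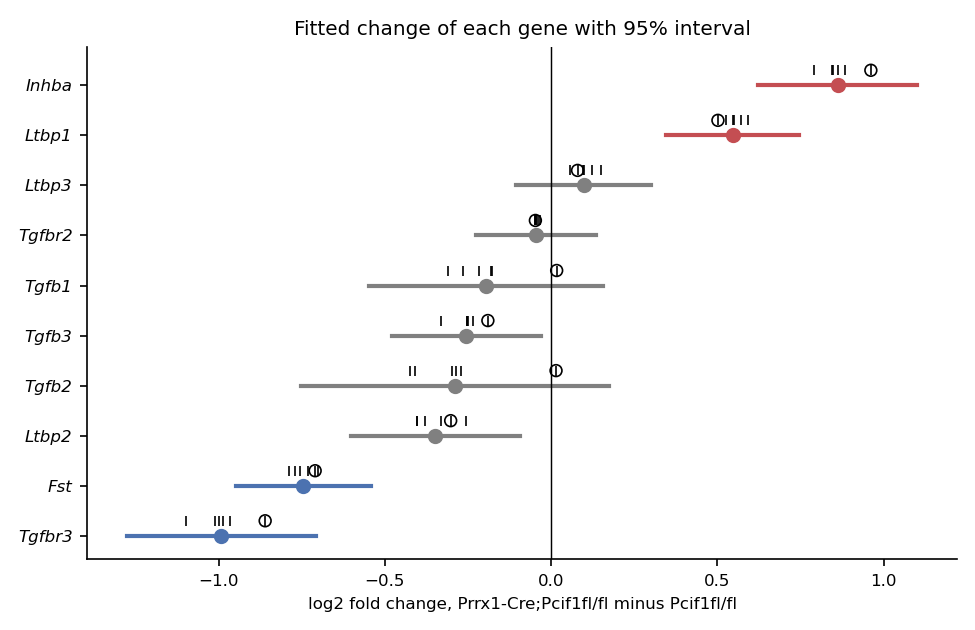
Fitted log2 fold change (dots, CKO minus WT) with its 95% interval (lines) for each of the 10 genes, in red where called higher, blue where called lower and grey otherwise. Ticks above each line are the 6 fits that leave out 1 library, with a ring around the fit without WT replicate 3; the rings of Tgfb1 and Tgfb2 sit near 0, at 0.017 and 0.015, while Tgfbr3 and Fst stay negative and Inhba and Ltbp1 positive in all 6.

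The LTBP family genes differed in direction. Ltbp1 (ENSMUSG00000001870, chromosome 17, 75005568 to 75392512), which encodes the binder that links latent TGF-β to the matrix in many connective tissues, was at 95.5, 90.2 and 83.9 CPM in WT and at 127, 135 and 131 CPM in CKO libraries. All of the latter were above 120 CPM and all of the former below 100 CPM. Ltbp1 rose 1.46-fold (log2 fold change 0.55, SE 0.088, 95% interval 0.34 to 0.75, adjusted p = 0.00736). Without CKO replicate 3 the size of the change was similar (0.55) but its adjusted p was 0.053. The counts pool the transcripts from both annotated Ltbp1 starts.

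Ltbp2 (ENSMUSG00000002020, chromosome 12, 84783212 to 84876532) encodes a family member that sits on elastic fibres and, unlike the others described here, does not bind latent TGF-β. Its levels were 103, 93.2 and 107 CPM in WT and 83.4, 69.1 and 85.6 CPM in CKO libraries, lower in all 3 of the latter. The log2 fold change was -0.35 (SE 0.11, 95% interval -0.60 to -0.095, adjusted p = 0.107), and without WT replicate 3 it was -0.30 (adjusted p = 0.0235). The antisense gene D030025P21Rik overlaps 9.34% of its exonic bases. Ltbp3 (ENSMUSG00000024940, chromosome 19, 5740904 to 5758532), another latent TGF-β binder known for roles in skeletal growth, was at 103, 99.3 and 96.5 CPM and at 107, 98.9 and 113 CPM, and the groups overlapped. Its log2 fold change was 0.098 (SE 0.089, 95% interval -0.11 to 0.30, adjusted p = 0.579).

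The sum of the 3 LTBP family genes per kb of exon stayed within overlapping ranges, at 30.78 to 32.86 CPM per kb in WT and 31.96 to 35.21 CPM per kb in CKO libraries. Within that sum Ltbp1 took 24.9% to 27.4% in the former and 34.9% to 39.5% in the latter. Ltbp2 took 37.0% to 41.4% and 26.4% to 30.0%, so that Ltbp1 and Ltbp2 exchanged places as the leading and the least abundant of the 3 in mean level, although Ltbp1 and Ltbp3 overlapped in CKO libraries. Ltbp3 held 33.7% to 35.6% and 34.1% to 35.4%. Ltbp4, the remaining family member, was at 2.72 to 3.78 CPM in all 6 libraries.

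Ordered by CPM per kb of exon, the scale on which levels of different genes can be set side by side, the genotypes shared their extremes. Tgfbr2 came first, at 75.8 ± 0.535 CPM per kb (SD, n = 3) in WT and 73.4 ± 0.920 in CKO MSCs, Tgfb1 came next and Tgfb2 came last. In WT MSCs Fst followed Tgfb1, and then came Tgfb3, Tgfbr3, Inhba, Ltbp2, Ltbp3 and Ltbp1. The neighbours Tgfb3 and Tgfbr3, Inhba and Ltbp2, and Ltbp1 and Tgfb2 overlapped between libraries there. In CKO MSCs the order after Tgfb1 was Inhba, Tgfb3, Fst, Tgfbr3, Ltbp1, Ltbp3 and Ltbp2. Ltbp1 could not be ranked against Tgfbr3 or Ltbp3 there, since it overlapped both. Inhba moved from place 6 to place 3, and Fst from place 3 to place 5.

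**Figure D4:**
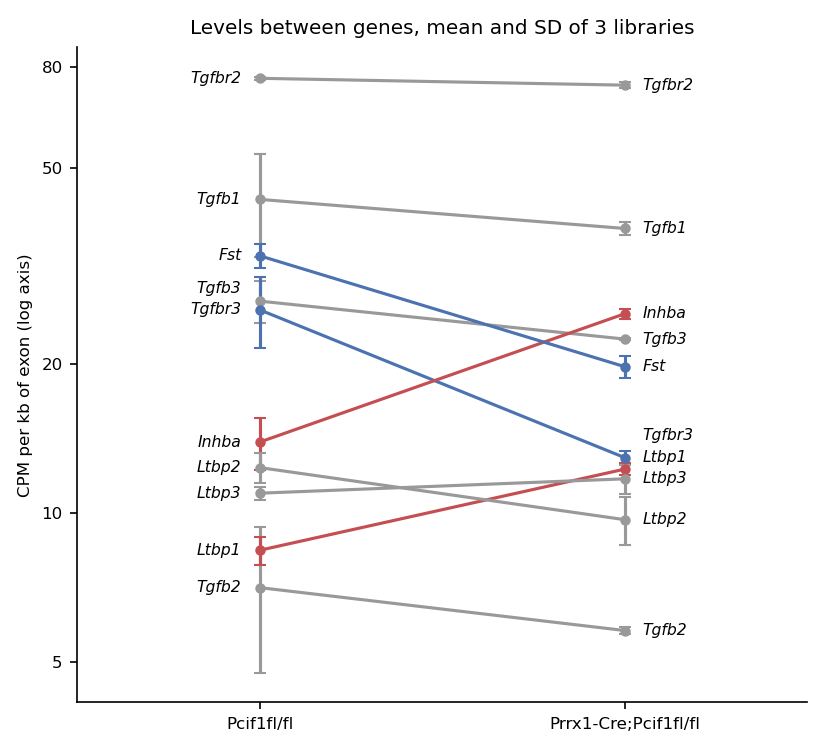
Mean level of each gene in CPM per kb of exon (log axis) in the 2 genotypes, with the SD of 3 libraries as bars and lines joining the same gene, in red where called higher, blue where called lower and grey otherwise. The lines of Inhba and Fst cross: Inhba goes from 13.9 to 25.3 and Fst from 33.2 to 19.8 CPM per kb.

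Further genes of the pathway were read from lists written by role. Of 8 other receptors and co-receptors tested, 1 was lower and 0 were higher by edgeR (2 and 1 at an unadjusted p under 0.05, 1 and 0 by DESeq2), against 4.51% and 2.88% of all genes (11.8% and 9.56% unadjusted), with a median log2 fold change of -0.19. The lower gene was Eng, which encodes endoglin, a co-receptor related to betaglycan. It was at 60.0, 49.9 and 79.2 CPM in WT and at 30.0, 28.0 and 29.5 CPM in CKO libraries, a log2 fold change of -1.11 (SE 0.16, adjusted p = 0.00507). Eng is also counted among the mesenchymal markers. Endothelial cells also carry endoglin, and the 8 endothelial markers summed to 24.77 to 37.97 CPM in WT and 22.4 to 24.2 CPM in CKO libraries, with 0 called (1 at an unadjusted p under 0.05); their part in the Eng result was not tested. Without WT replicate 3 the receptor list held 3 lower genes and 1 higher gene, against 10.4% and 11.1% of all genes.

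Among 14 other ligands and binders tested, 1 was lower and 1 higher (7.14% each, against 4.51% and 2.88% of all genes), and the median log2 fold change was 0.055. Fstl1, which encodes an abundant secreted glycoprotein of the follistatin family, fell from 1253, 1121 and 1060 CPM to 684, 660 and 623 CPM (log2 fold change -0.80, SE 0.098, adjusted p = 0.0019). Dcn, the gene of decorin, a matrix proteoglycan that binds TGF-β, was at 26.3, 26.2 and 37.7 CPM and at 49.9, 52.7 and 46.1 CPM (log2 fold change 0.72, adjusted p = 0.0284). The call of Dcn was lost when any library other than WT replicate 3 was left out, with adjusted p-values of up to 0.124. Dcn without WT replicate 3 had a log2 fold change of 0.92.

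The list of integrins, proteases and matrix proteins that hold or release latent TGF-β had 15 genes tested, of which 1 was lower and 2 were higher by edgeR (6.67% and 13.3%, against 4.51% and 2.88% of all genes), and 2 and 4 by DESeq2. Itgav, which encodes the αv subunit of the integrins that activate latent TGF-β, rose from 205, 223 and 254 CPM to 384, 340 and 381 CPM (log2 fold change 0.70, SE 0.11, adjusted p = 0.00583). Mmp2, the gene of a gelatinase, had a log2 fold change of 0.50 (adjusted p = 0.00803), which rose to an adjusted p of 0.0626 without CKO replicate 1 and 0.0566 without replicate 3. Fbn2, which encodes a fibrillin of the microfibrils on which latent binders sit, fell from 29.9, 29.6 and 29.4 CPM to 6.03, 5.23 and 5.58 CPM (log2 fold change -2.40, SE 0.12, adjusted p = 5.23e-05). Fbn1, the gene of the more abundant fibrillin, had a log2 fold change of -0.29 that did not pass with edgeR (adjusted p = 0.0832) but passed with DESeq2 (adjusted p = 0.0455) and without WT replicate 3 (adjusted p = 0.00401). Without WT replicate 3, 3 genes of the list were lower and 7 higher, when 10.4% and 11.1% of all genes were.

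Of 18 SMAD genes and regulators tested, 1 was lower and 0 were higher by edgeR (3 and 3 at an unadjusted p under 0.05, 1 and 1 by DESeq2). The 5.56% lower was near the 4.51% of all genes, of which 2.88% were higher (11.8% and 9.56% unadjusted). The lower gene, Smad6, encodes an inhibitory SMAD best known from BMP signalling. It was at 19.4, 16.4 and 11.4 CPM and at 8.64, 8.61 and 8.66 CPM, a log2 fold change of -0.86 (adjusted p = 0.0347). The call did not hold with limma-voom (adjusted p = 0.0597) or without any single library other than WT replicate 3 (adjusted p of up to 0.146). The genes of the TGF-β and activin mediators Smad2, Smad3 and Smad4 had log2 fold changes of -0.034, 0.16 and -0.072, with adjusted p-values of 0.881, 0.382 and 0.647. These counts do not show the phosphorylated, active proteins.

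Of 23 genes that TGF-β is known to raise in mesenchymal cells, 6 were higher and 1 was lower, or 26.1% and 4.35%, with a median log2 fold change of 0.21. Over all genes 2.88% were higher and 4.51% lower, so that the share of lower genes was near that of all genes. At an unadjusted p under 0.05, 10 of the 23 were higher and 4 lower, where 9.56% and 11.8% of all genes were. DESeq2 called 7 higher and 2 lower. Ltbp2, Smad7 and Skil are counted both here and in another list, Col1a1 and Col1a2 also among the mesenchymal markers, and Acta2, Tagln and Cnn1 also among the smooth muscle markers. Ccn2, the gene of connective tissue growth factor, rose from 190, 169 and 197 CPM to 271, 283 and 271 CPM (log2 fold change 0.57, SE 0.091, adjusted p = 0.00702). Ccn2 was called in all 13 alternative fits.

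The AP-1 gene Junb, the collagen gene Col1a1 and the matricellular gene Postn were also higher, with log2 fold changes of 0.75, 0.61 and 0.69 (adjusted p = 0.00916, 0.0154 and 0.0169). Their calls were each lost in 2 to 4 of the fits that left out 1 library. Named after its value was seen, Col1a2 had a log2 fold change of 0.64 (adjusted p = 0.0322), a call that was lost without WT replicate 2 or any single CKO library (adjusted p of up to 0.142). The lower gene, also named after its value was seen, was Tgfbi, a matrix protein gene named for its induction by TGF-β, with a log2 fold change of -0.41 (adjusted p = 0.0311). Tgfbi lost its call without any single library except WT replicate 3. The smooth muscle actin gene Acta2, a classic target, had a log2 fold change of -0.037 (adjusted p = 0.888). The number of higher genes in this list moved with that of the whole table when single libraries were left out. It was 2 without CKO replicate 1 or 3, when 1.06% and 1.07% of all genes were higher, and 11 without WT replicate 3, when 11.1% were.

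**Figure D5:**
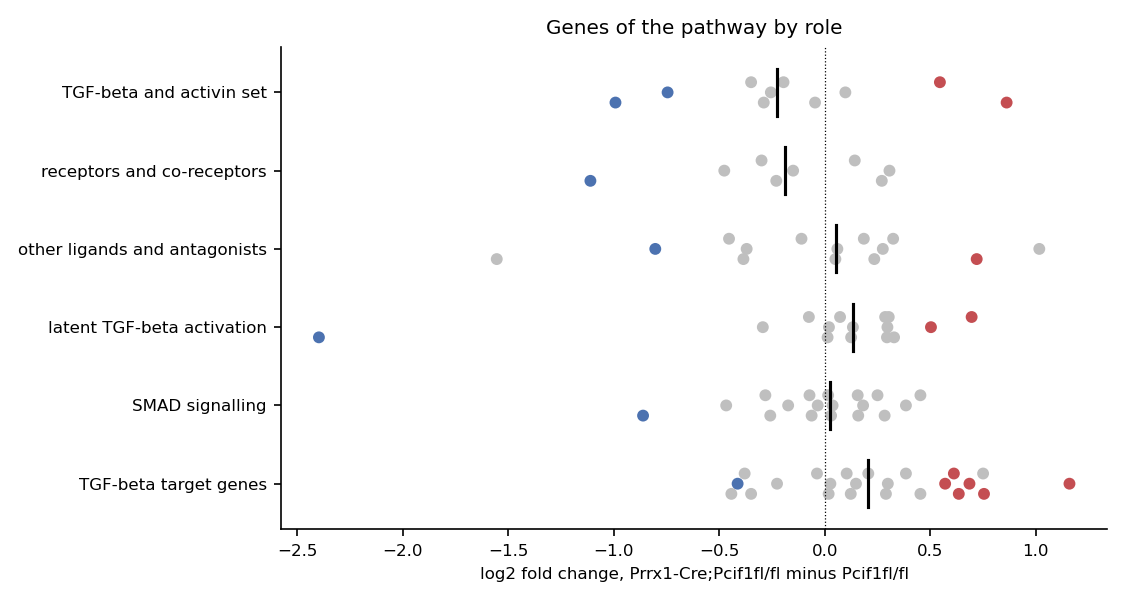
Log2 fold change (CKO minus WT) of each tested gene of the 10-gene set and of 5 lists of the pathway by role. Each dot is a gene (red called higher, blue called lower, grey not called; the vertical offset within a list only separates dots) and the black bar is the list's median; the target list holds 6 red dots to the right of 0 and 1 blue dot.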

How the data were processed

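The 3 WT and 3 CKO libraries hold poly(A) RNA of MSC cultures. After mapping with HISAT2 to mm10, the authors deposited raw read counts per gene. The counting tool, annotation and use of strand are not given in the sources used here. Of 20163 rows, 92 repeat an Ensembl ID with identical counts and were dropped. Counts were filtered with filterByExpr, scaled by TMM and tested with glmQLFit and glmQLFTest of edgeR 4.0.16 in R 4.3.3, without covariates, over 13733 genes. An SE is the size of the log2 fold change over the root of its F value, and 95% intervals use the fit's degrees of freedom. Exon length is the union of exons in GENCODE M21 (GRCm38), which also gave positions and overlaps. DESeq2 1.42.0, limma-voom (limma 3.58.1), other scalings and filters, a replicate block and leaving out each library were alternatives. The fits were tested on simulated counts. Intervals cover counting error and the spread between libraries only, and PCR duplicates could not be removed. The genes and lists were chosen with earlier results of these data known. Named from each list were up to 5 called genes with the smallest p-values and the receptors Tgfbr1, Acvr1b, Acvr2a and Acvr2b, and other list genes were named after their values were seen. A gene that this rule names is not reported here.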

Additional observations from a re-analysis of the deposited data

How the results depend on the processing

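Over 13 alternative fits, the 10 genes gave 130 log2 fold changes, of which 126 kept their direction and their side of the threshold. Without WT replicate 3, Tgfb1 and Tgfb2 changed sign, and over the fits that left out 1 library their log2 fold changes ranged from -0.31 to 0.017 and from -0.43 to 0.015. Ltbp2 gained a call without that library, and Ltbp1 lost its call without CKO replicate 3, so that the number of higher genes was between 1 and 2 when 1 library was left out. With the fold change threshold of the study 0 genes were lower and 0 higher in the reported fit, but Tgfbr3 passed it with library totals (log2 fold change -1.01), without WT replicate 2 (-1.10) and without CKO replicate 1 (-1.01), so that 1 gene was lower there. Leaving out 1 library gave 324 to 1447 lower and 148 to 1544 higher genes over the whole table, the highest without WT replicate 3. The replicate numbers did not pair the libraries (same-numbered libraries correlated at -0.045 to 0.055), and with the replicate block 2 genes were lower and 2 higher, as in the reported fit. Of the other pathway genes named, Tgfbi lost its call with the block (adjusted p = 0.0938). RLE size factors and library totals shifted the median log2 fold change of all genes by 0.0036 and -0.022. Each of the 10 genes had at least 685 reads per library, and the precision is limited by n = 3 per genotype. The same alternatives for the other pathway lists were chosen after seeing the data, and over them the higher genes numbered 2 to 11 among the target genes and 1 to 7 in the list on latent TGF-β. Inhbb, Smad2 and Acta2, with log2 fold changes near 0, changed sign without WT replicate 3, and over the fits that left out 1 library they ranged from -0.052 to 0.19, from -0.078 to 0.058 and from -0.14 to 0.085.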
